A study of Mus musculus with 16 samples.

Results

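Levels of 8 genes of the Nodal pathway were read in Stat3 null and wild-type (WT) cells of chimeric mouse embryos. The genes were taken by symbol from the count matrix, and all 8 were found among its 29453 genes. They are the ligand Nodal, the secreted inhibitors Lefty1, Lefty2 and Cer1, the co-receptor Tdgf1 (also called Cripto), the receptors Acvr1b and Acvr2b, and the transcription factor Foxh1.

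Nodal is a ligand of the TGF-beta family that binds activin receptors together with a co-receptor at the cell surface, upon which SMAD2 and SMAD3 are phosphorylated and act on chromatin with partners such as FOXH1. The pathway patterns the epiblast, induces mesoderm and endoderm at the primitive streak and later sets the left side of the body. Its inhibitors are themselves targets of the signal, which gives the pathway both self-enhancing and self-limiting arms.

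The chimeras were made by injecting Stat3 null embryonic stem cells (ESCs) of the outbred CD1 strain, which carried a tdTomato reporter, into WT CD1 blastocysts. Embryos were pooled and dissociated. By the sample records a pool held about 10 embryos at E7.5 (fewer by the study's supplement), about 4 at E8.5 and 1 at E9.5. The Stat3 null cells, which show tdTomato, were sorted from the host cells, which do not, into separate 10x Genomics 3' libraries. Embryos of E7.5 were also classed as large or small, and which library came from which class is not given in the sources used here. Each genotype had 2 libraries at E7.5, 2 at E8.5 and 4 at E9.5, so that 6 groups of stage and genotype were compared, and within each group the libraries are named A to D without any pairing between groups. The null cells develop beside WT cells of the same embryos, whereas the WT cells also fill tissues to which injected ESCs contribute little, such as the extra-embryonic ectoderm and endoderm. The replicates are libraries, and p-values measure the spread between libraries only. Each genotype has more E9.5 libraries than the methods name embryos, so some share an embryo, and p-values over them are too small.

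After removal of doublets, 37841 cells in 87 cell types of the deposited annotation were analysed, with 360 to 4327 cells and 20682659 to 138613245 unique molecular identifiers (UMIs) in each of the 16 libraries. Levels are UMI counts scaled to a total of 1000000 UMIs in the library or the cell type (CPM). Stat3 itself lay at 1.16 to 2.53 CPM in the null libraries and at 6.14 to 9.31 CPM in the WT libraries. Libraries C and D of E9.5 WT carried 292 cell barcodes in common, against at most 8 in any other of the 120 pairs of libraries. Of these 292 barcodes, 10 had the same cell type in both libraries. A tdTomato UMI was found in 72.3% of cells of E8.5 null B and 89.8% of E8.5 null A, and in 96.1% to 98.3% of the other null libraries. At E7.5 the share of cells labelled Epiblast, Primitive Streak, Anterior Primitive Streak or Nascent mesoderm was 2.07% in WT A and 2.16% in null A, but 22.0% in WT B and 22.8% in null B.

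In GRCm38 the genes stand at chr10:61417972-61425338 (Nodal), chr1:180935022-180938400 (Lefty1), chr1:180893108-180899103 (Lefty2), chr4:82881751-82885148 (Cer1), chr9:110939603-110946158 (Tdgf1), chr15:76668225-76669948 (Foxh1), chr15:101174067-101213684 (Acvr1b) and chr9:119402118-119434995 (Acvr2b). Cer1, Tdgf1 and Foxh1 are on the minus strand and the others on the plus strand. Acvr1b overlaps the annotated gene Mir6962 and Acvr2b overlaps Gm47320. Lefty1 and Lefty2 are neighbours 35918 bases apart with similar transcripts: 281 of the 1571 words of 50 bases in the Lefty1-201 transcript also occur in Lefty2-201, but 0 of the 351 words in its last 400 bases, the end from which the libraries were made.

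The promoters of Nodal, Cer1 and Tdgf1 are shown since the results on stages and cell types below turn on these genes. Each runs 5' to 3' on the gene's own strand over 300 bases, with the start site at the 251st base, in GRCm38.p6. Nodal lies at chr10:61417722-61418021 on the plus strand, Cer1 at chr4:82885102-82885401 on the minus strand and Tdgf1 at chr9:110946109-110946408 on the minus strand. Capitals mark matches to AATNNACA, a motif of the kind FOXH1 binds.
Nodal: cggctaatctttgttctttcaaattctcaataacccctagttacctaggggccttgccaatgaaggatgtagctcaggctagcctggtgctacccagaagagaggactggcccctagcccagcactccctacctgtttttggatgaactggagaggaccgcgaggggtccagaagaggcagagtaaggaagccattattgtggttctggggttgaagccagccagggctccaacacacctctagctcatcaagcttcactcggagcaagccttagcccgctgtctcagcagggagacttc
Cer1: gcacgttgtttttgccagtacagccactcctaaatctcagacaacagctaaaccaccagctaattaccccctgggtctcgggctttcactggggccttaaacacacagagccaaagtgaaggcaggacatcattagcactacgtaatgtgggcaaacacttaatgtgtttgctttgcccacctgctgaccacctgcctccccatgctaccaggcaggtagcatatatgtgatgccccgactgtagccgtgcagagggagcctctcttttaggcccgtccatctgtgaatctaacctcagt
Tdgf1: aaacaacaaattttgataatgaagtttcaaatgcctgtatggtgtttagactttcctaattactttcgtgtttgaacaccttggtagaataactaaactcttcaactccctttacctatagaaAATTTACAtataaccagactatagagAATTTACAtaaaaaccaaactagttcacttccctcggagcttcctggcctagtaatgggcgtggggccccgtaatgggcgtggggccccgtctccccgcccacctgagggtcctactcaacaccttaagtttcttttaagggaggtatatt
Tdgf1 held 2 matches, with first bases at -127 and -101 from the start site. Nodal, Cer1, Acvr1b and Acvr2b held 0 matches, and 12.2% of the 32851 RefSeq promoters of this length hold at least 1 on either strand. Also searched on both strands were AGGTGTGA (a T-box half-site, in 1.28% of promoters), TTCNNNGAA (a STAT-type site, in 8.30%) and TATAAA (in 13.6%), and none of the 5 promoters of members read here held any of them. A match describes the letters of this window and not a bound site. RefSeq promoters were not matched for Lefty1, Lefty2 and Foxh1.

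Nodal, Cer1, Lefty2, Tdgf1 and Foxh1 had their highest whole-library levels at E7.5, whereas the 2 receptors were present at all 3 stages. In a whole library, fewer cells of a type and less RNA per cell cannot be told apart. Nodal, the ligand, stood at 1.58 and 3.89 CPM in WT A and B at E7.5, at 0.0603 and 0.281 CPM at E8.5 and between 0.0632 and 0.103 CPM in the 4 WT libraries of E9.5. Cer1, an inhibitor that binds Nodal and BMP ligands, stood at 20.4 and 19.5 CPM at E7.5. It stood at 0.687 and 0.481 CPM at E8.5 and at 0.210 to 0.599 CPM at E9.5. For both genes every E7.5 library lay above every later one. Foxh1, which brings SMADs to their target sites, stood at 2.54 and 2.86 CPM in WT cells at E7.5, at 0.591 and 1.04 CPM at E8.5 and at 0 to 0.0826 CPM at E9.5, so that its levels did not overlap between stages.

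Lefty2 and Tdgf1 differed widely between the libraries of E7.5. Lefty2, a secreted antagonist of Nodal, stood at 2.36 CPM in WT A against 35.9 CPM in WT B at E7.5, at 0.157 and 2.29 CPM at E8.5 and at 0.0723 to 0.149 CPM at E9.5. Tdgf1 stood at 0.552 CPM in WT A against 47.3 CPM in WT B at E7.5, at 0.724 and 1.77 CPM at E8.5 and at 0.0506 to 0.558 CPM at E9.5. The E7.5 WT A level of Tdgf1 therefore lay below both E8.5 WT levels. Acvr1b, the type I receptor of the pathway, stood at 6.35 to 7.91 CPM at E7.5, 3.79 to 4.56 CPM at E8.5 and 4.01 to 4.73 CPM at E9.5 over both genotypes. Acvr2b, a type II receptor shared with activins, stood at 112.1 to 125.6, 82.0 to 96.1 and 106.1 to 120.6 CPM at the 3 stages.

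**Figure D1:**
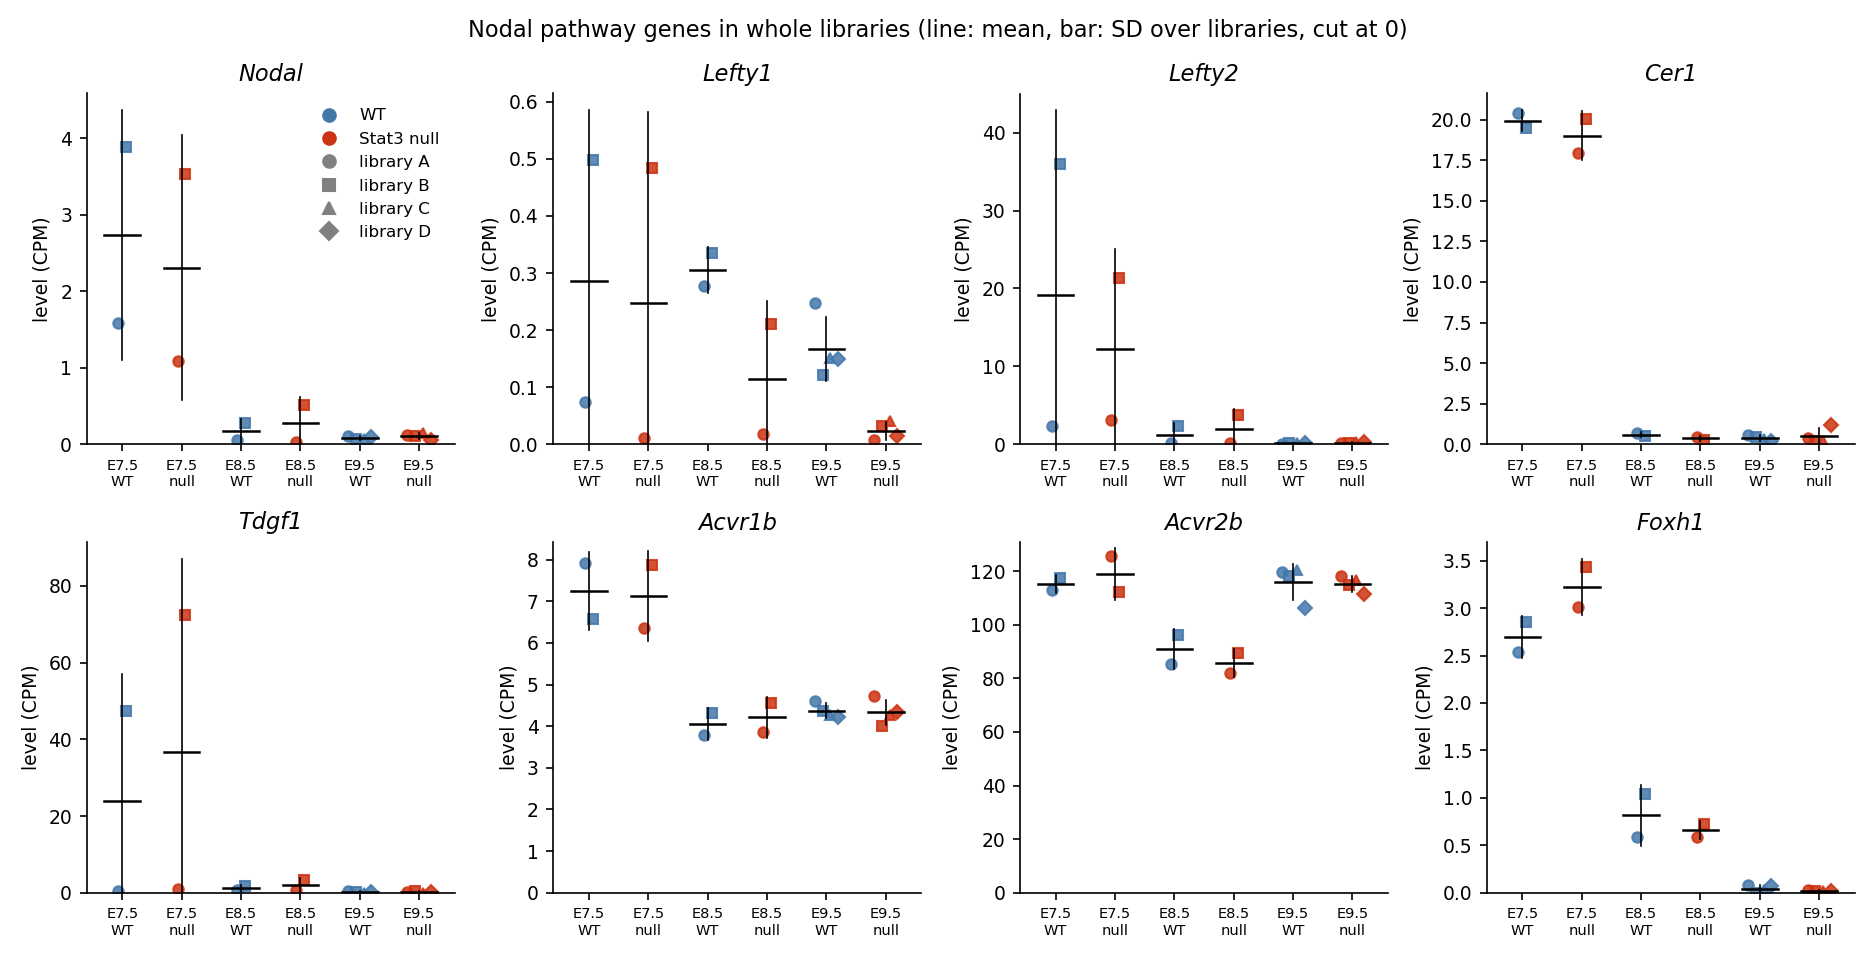
Level of each gene in every library in CPM (linear y axes starting at 0), by stage and genotype on the x axis, with the mean (line) and SD over libraries (bar, drawn from 0 where it would fall below). Cer1, Nodal and Foxh1 lie lower after E7.5 in both genotypes, Tdgf1 and Lefty2 were high in library B of E7.5 and low in library A, and Lefty1 is the gene whose null libraries lie below its WT libraries at E8.5 and E9.5.

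Between E7.5 and E8.5 in WT cells, 3 of the 8 genes were called lower, against 8.55% of all 15575 genes tested. A call was an adjusted p under 0.05 by edgeR's quasi-likelihood test with an absolute log2 fold change over 1. Cer1 fell by 4.91 on the log2 scale (SE 0.673, edgeR adjusted p = 0.000118), Nodal fell by 3.88 (SE 0.902, edgeR adjusted p = 0.00370) and Foxh1 fell by 1.56 (SE 0.432, edgeR adjusted p = 0.00948). Leaving out each library in turn kept Cer1 between -5.21 and -4.67 and Nodal between -5.31 and -3.03, all called, while Foxh1 lost its call without E7.5 WT B (edgeR adjusted p = 0.0603) or without E8.5 WT A (edgeR adjusted p = 0.102). Without Erythroid cells, in an alternative chosen after seeing the data, Foxh1 stood at -3.52 (edgeR adjusted p = 0.000173). Acvr1b was lower by -0.66 (edgeR adjusted p = 0.00143), under the limit on the fold change. Lefty2 (-3.86, edgeR adjusted p = 0.0552), Tdgf1 (-4.16, edgeR adjusted p = 0.0880), Acvr2b (-0.18, edgeR adjusted p = 0.0579) and Lefty1 (0.10, edgeR adjusted p = 0.946) did not pass. Single libraries decided Lefty2 and Tdgf1. Without E7.5 WT A or without E7.5 null A both were called lower (-4.76, edgeR adjusted p = 0.0235, and -5.12, edgeR adjusted p = 0.0354, without WT A). Lefty2 was also called without any 1 of E8.5 WT B, null A or null B and Tdgf1 without E7.5 null B. Without E7.5 WT B, in contrast, Lefty2 shrank to -0.77 (edgeR adjusted p = 0.743) and Tdgf1 turned to 1.36 (edgeR adjusted p = 0.718).

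Between E8.5 and E9.5 in WT cells, 1 of the 8 genes was called lower, against 3.24% of all genes (10.1% in either direction). Foxh1 fell by 4.29 on the log2 scale (SE 0.451, edgeR adjusted p = 1.93e-05). Lefty2 came next at -3.59 (edgeR adjusted p = 0.0793), and the other 6 genes lay between -2.32 and 0.09, all with edgeR adjusted p of 0.248 or more.

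At E7.5 Nodal, Lefty2, Tdgf1 and Cer1 were each concentrated in a few cell types, which partly coincided. The labels of these types were read beside markers fixed for them: all 4 Node markers, all 4 Gut tube markers, all 5 Visceral endoderm markers and all 3 Nascent mesoderm markers were higher in the labelled cells than in the other cells of the stage. In Paraxial mesoderm of E7.5 and Dermomyotome of later stages 2 of 3 markers were higher and Tbx6 was lower. In Presomitic mesoderm 2 of 3 were higher and Meox1 was lower. Some labels named below, among them Intermediate mesoderm and Cardiomyocytes FHF 2, were not read beside markers. Nodal was highest in the Node, the organiser at the front of the streak, with 117.7 CPM in WT A (10 cells), 49.9 CPM in WT B (11 cells), 76.1 CPM in null A (40 cells) and 127.4 CPM in null B (4 cells). The Node held 74.4% of all Nodal UMIs in WT A, 83.7% in null A and 39.7% in null B, but 15 of the 211 in WT B, where Primitive Streak and Visceral endoderm held 30.8% each. In library B of each genotype Nodal was also found in the Primitive Streak, at 27.6 CPM in WT (77 cells) and 19.4 CPM in null cells (21 cells), and in the Epiblast, at 7.22 CPM (125 cells) and 6.48 CPM (25 cells). In WT Visceral endoderm, an extra-embryonic layer that contributes to patterning, Nodal stood at 3.88 CPM in WT A (31 cells) and 38.7 CPM in WT B (71 cells).

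Lefty2 was highest in Nascent mesoderm, the cells that have just left the streak, at 290.4 CPM in WT B (176 cells), 207.4 CPM in null B (31 cells) and 43.3 CPM in null A (18 cells), with 0 UMIs in the 6 such cells of WT A. Nascent mesoderm held 80.3% of the Lefty2 UMIs in WT B and 81.4% in null B, but 10.5% in null A. Intermediate mesoderm led in WT A (62.5%) and Paraxial mesoderm in null A (44.9%). Levels were lower in Intermediate mesoderm, at 17.4 and 85.5 CPM in WT A and B against a mean of 11.7 CPM ± 0.441 (SD, n = 2) in null libraries, and in Paraxial mesoderm, at 12.1 and 30.6 CPM in WT against 15.9 CPM ± 1.64 (SD, n = 2) in null libraries.

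Tdgf1 followed the streak and its products. In WT B and null B it stood at 122.9 and 256.6 CPM in the Primitive Streak, at 282.7 and 583.3 CPM in the Anterior Primitive Streak (15 and 5 cells), at 327.1 and 436.9 CPM in Nascent mesoderm and at 15.8 and 79.1 CPM in the Epiblast. In null A, Nascent mesoderm held 4.33 CPM of Tdgf1 (18 cells). Epiblast (18 cells), Primitive Streak (3 cells) and Anterior Primitive Streak (8 cells) of null A held 0 UMIs. WT A held 4.36 CPM in 6 Nascent mesoderm cells and 0 UMIs in 9 Epiblast cells. Cells of the same label thus differed between the E7.5 libraries. In all 4 of these types null B lay above WT B and null A below it, and no difference was tested.

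Cer1 was an endodermal and mesodermal transcript at E7.5. In the Gut tube, which derives from definitive and visceral endoderm, it stood at 277.1 CPM in WT A (29 cells), 213.8 CPM in WT B (43 cells), 210.7 CPM in null A (65 cells) and 254.3 CPM in null B (9 cells), so that the genotypes overlapped. In the Anterior Primitive Streak it stood at 333.3 CPM in WT B (15 cells), 196.2 CPM in null A (8 cells) and 334.3 CPM in null B (5 cells). Visceral endoderm of WT A and B held 64.6 and 210.8 CPM. Paraxial mesoderm held 115.1 and 50.5 CPM in WT libraries and 68.0 CPM ± 2.58 (SD, n = 2) in null libraries.

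**Figure D2:**
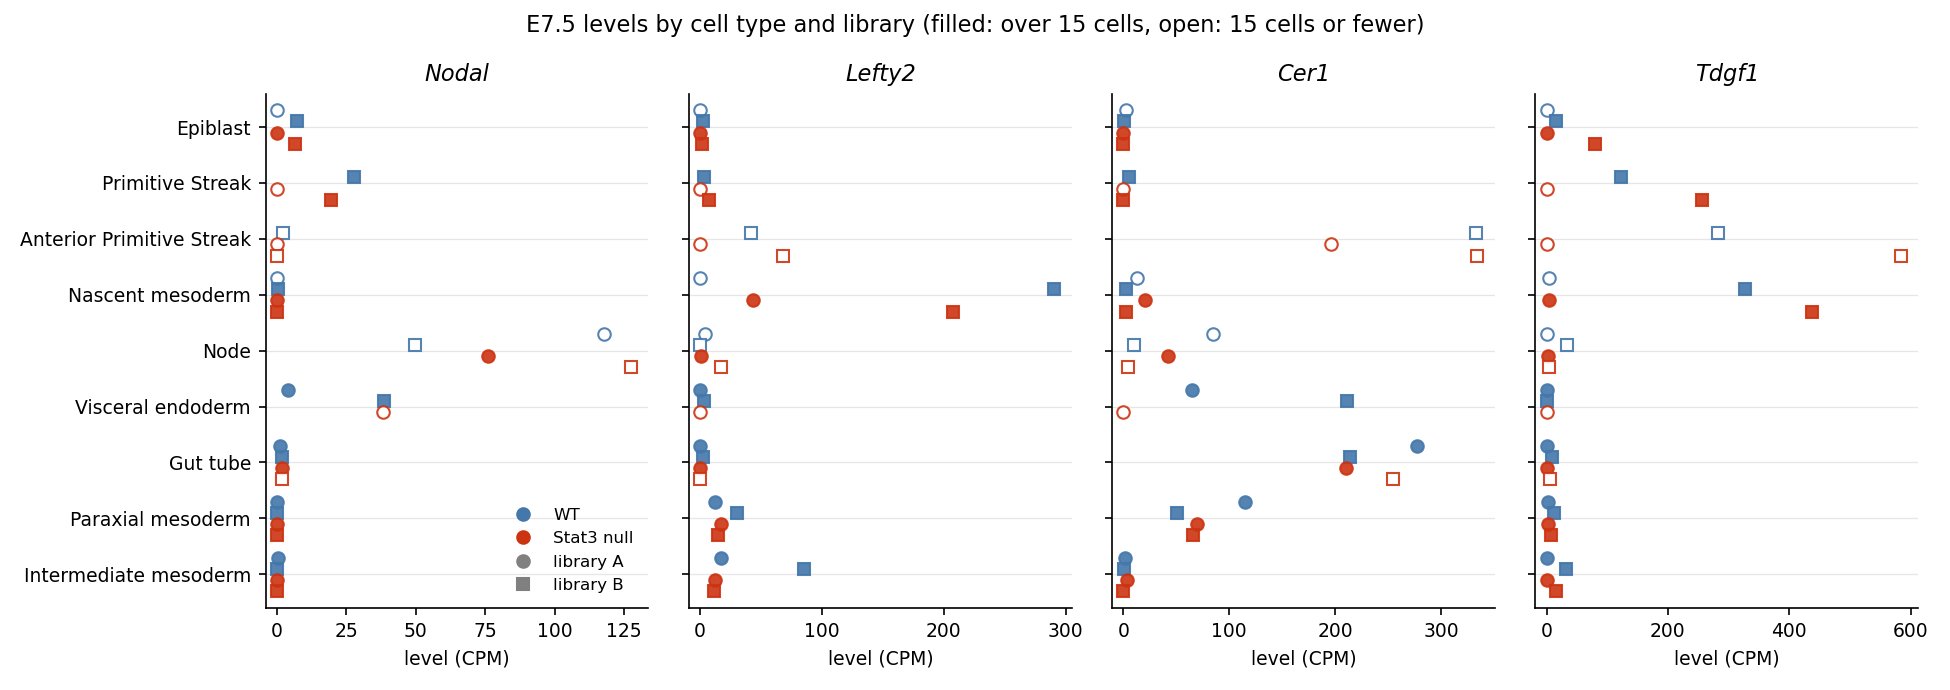
Level in CPM (linear x axes) of Nodal, Lefty2, Cer1 and Tdgf1 in 9 cell types of E7.5 (rows), 1 point per library, filled where the library had over 15 cells of the type and open where it had 15 or fewer. Nodal peaks in the Node, Lefty2 in Nascent mesoderm, Cer1 in the Gut tube and Anterior Primitive Streak, and Tdgf1 in the streak and Nascent mesoderm of library B.

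The gap between libraries A and B of E7.5 moved with the share of epiblast, streak and nascent mesoderm cells given above. These types held 87.4% of the Tdgf1 UMIs in WT B and 90.5% in null B, 82.2% and 88.7% of the Lefty2 UMIs, and 45.5% and 45.2% of the Nodal UMIs. Without them Tdgf1 stood at 0.527 CPM in WT A, 7.63 CPM in WT B, 0.982 CPM in null A and 8.91 CPM in null B. Lefty2 stood at 2.41, 8.22, 2.88 and 3.14 CPM in the same order, and Nodal at 1.62, 2.72, 1.11 and 2.51 CPM. Library B thus remained above library A for each of the 3 genes in both genotypes, by less than before.

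Shares of cells with at least 1 UMI, after each cell was thinned to 10000 UMIs, were set beside those of Erythroid cells of E8.5 WT libraries. They are given for the leading type among those with over 15 cells in both E7.5 WT libraries, which leaves out the Node and Nascent mesoderm. In those, thinned shares were 40.0% and 27.3% of Node cells for Nodal in WT A and B, and 60.2% and 77.3% of Nascent mesoderm cells for Lefty2 and Tdgf1 in WT B. Cer1 was found in 61.3% ± 18.5 of Gut tube cells of E7.5 WT libraries (SD, n = 2) and 75.2% before thinning. Lefty2 was found in 19.6% ± 11.4 and Tdgf1 in 9.23% ± 13.1 of Intermediate mesoderm cells, and Nodal in 10.8% ± 10.7 of Visceral endoderm cells (27.8%, 16.1% and 18.0% before thinning). In Erythroid cells the thinned shares were 0% for Nodal, Lefty2 and Cer1 and 0.0804% for Tdgf1. Foxh1 was found in 6.73% ± 1.65 of Non-neural ectoderm cells (19.2% before thinning) against 2.67% ± 1.45 of Erythroid cells (9.28% before). Acvr1b was found in 5.84% ± 3.69 of Visceral endoderm cells (17.5% before) against 2.82% of Erythroid cells, and Acvr2b in 78.4% ± 0.142 of Intermediate mesoderm cells (97.8% before) against 13.3% ± 6.48 (37.9% before). Lefty1 was found in 1.41% ± 1.99 of Visceral endoderm cells and 1.11% ± 0.246 of Erythroid cells. Since Erythroid cells held most of the WT UMIs of Lefty1 and Foxh1 at E8.5, they are no background for these genes. Median depths were 22750 UMIs per cell in Visceral endoderm, 30700 in Intermediate mesoderm, 29024.5 in Gut tube and 31385 in the 1048 Erythroid cells.

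After E7.5 the remaining UMIs of several genes lay in single tissues, which were chosen here after their values were seen. Cardiomyocytes, under 4 labels of the first and second heart fields, held 350 of the 373 Tdgf1 UMIs of E8.5 (93.8%) in 277 cells and 181 of the 205 of E9.5 (88.3%) in 260 cells. In these cells Tdgf1 stood at 35.9 and 53.6 CPM in the WT libraries of E8.5 and at 44.1 and 104.1 CPM in the null libraries. At E9.5 it stood at 69.3, 23.3, 0 and 18.2 CPM in WT A to D and at 17.6, 38.9, 0 and 15.2 CPM in null A to D. The genotypes overlapped at both stages. The label Cardiomyocytes FHF 2 alone, with 69 cells at E8.5, held 297 of the UMIs (79.6%), at 125.9 and 145.6 CPM in WT and 161.8 and 304.4 CPM in null libraries. At E9.5 the same label had 29 cells with 112 of the UMIs (54.6%), at 332.4, 122.4 and 105.8 CPM in WT A, B and D (2, 5 and 9 cells) and at 90.7, 50.4 and 37.6 CPM in null A, B and D (8, 3 and 2 cells). At E8.5 this label had 9 and 36 cells in WT A and B and 14 and 10 in null A and B. With so few cells, and 9 or fewer per library at E9.5, no direction is read from these levels. No difference between genotypes was tested.

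Cer1 was found after E7.5 in somite derivatives. In Posterior somitic tissues it stood at 27.4 and 15.4 CPM in WT libraries and 30.1 CPM in null A at E8.5, and at 13.7, 19.3, 4.40 and 7.34 CPM in WT A to D and 11.5, 0.803, 5.25 and 31.5 CPM in null A to D at E9.5. In Dermomyotome, the source of muscle and dermis, it stood at 39.1 and 14.7 CPM in WT and 13.5 CPM in null A at E8.5. At E9.5 the Dermomyotome levels were 16.1, 0.722, 5.39 and 4.05 CPM in WT A to D and 2.94, 8.67, 3.20 and 33.0 CPM in null A to D. Single cells carried much of this signal: 20 cells with 5 or more UMIs held 215 of the 309 Cer1 UMIs of E9.5.

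Lefty2 was found at E8.5 in cardiac and lateral mesoderm of library B of each genotype. Cardiopharyngeal progenitors SHF held 48.2 CPM in WT B and 110.6 CPM in null B (12 cells), Lateral plate mesoderm 9.73 and 22.9 CPM and Cardiomyocytes FHF 1 70.5 and 32.4 CPM. The A libraries of E8.5 had 0 Lefty2 UMIs in each of these types. In Presomitic mesoderm, the tail-end source of somites, Lefty2 stood at 5.51 and 13.2 CPM in E8.5 WT and 5.23 CPM in null A. At E9.5 Lefty2 there stood at 1.86 CPM in WT A, 5.66 CPM in WT D, 9.23 CPM in null A and 9.5 CPM in null D, a difference of 1.22 on the log2 scale that did not pass (edgeR adjusted p = 0.944). Foxh1 at E8.5 lay in Erythroid cells, at 2.16 and 3.61 CPM in WT and 2.44 and 2.98 CPM in null libraries, and 100 WT and 75 null UMIs of the 218 of the stage were there. Nodal was at 0 UMIs in WT cells of 29 of 36 types at E8.5 and 26 of 40 types at E9.5.

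**Figure D3:**
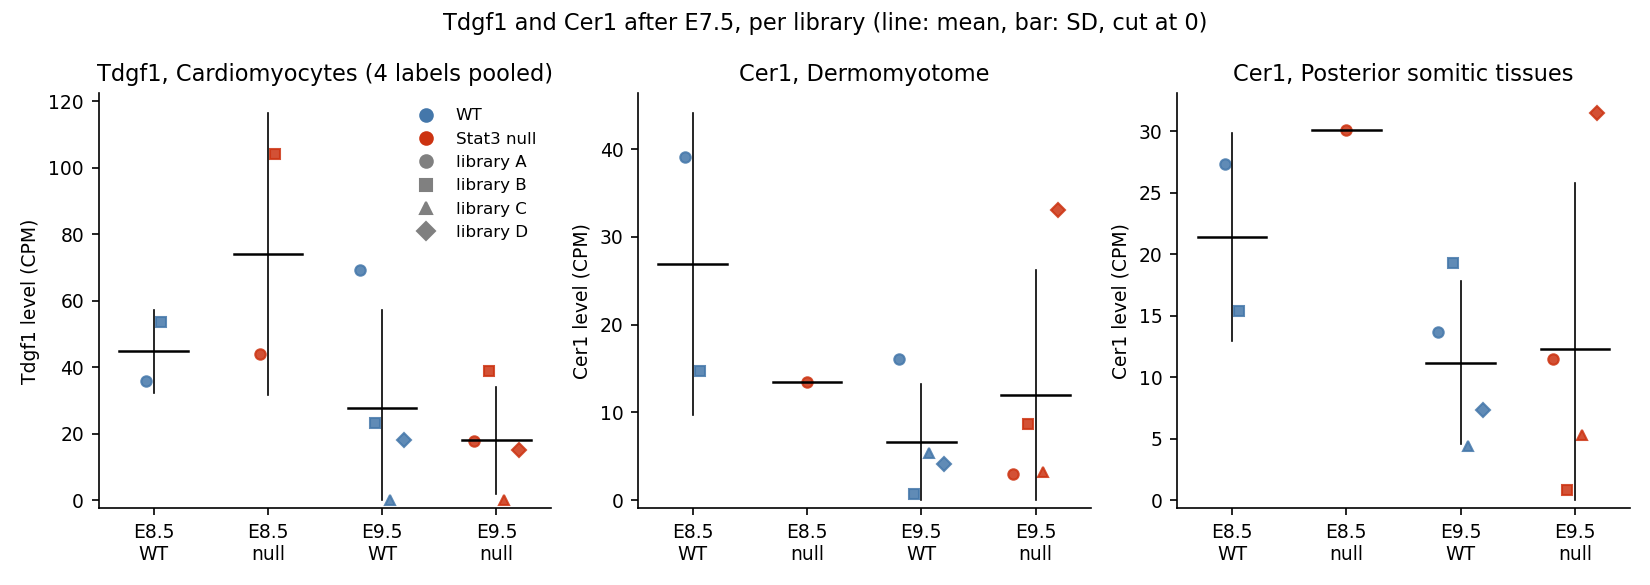
Level in CPM (linear y axes) of Tdgf1 in cells of the 4 cardiomyocyte labels and of Cer1 in Dermomyotome and Posterior somitic tissues, per library at E8.5 and E9.5, with mean (line) and SD (bar, drawn from 0 where it would fall below). The points of both genotypes overlap at E9.5 in each panel, and a single null library, D, stands at 33.0 and 31.5 CPM for Cer1.

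The receptors were expressed broadly. In WT cells of E7.5, Acvr2b ranged over 11 types from 68.6 CPM in Blood progenitors to 156.6 CPM in Intermediate mesoderm. At E8.5 it ranged over 36 types from 16.7 CPM ± 6.82 (SD, n = 2) in Erythroid cells to 157.6 CPM ± 12.9 in Hindbrain floor plate, and at E9.5 over 40 types from 8.39 CPM ± 3.57 (SD, n = 4) in Erythroid cells to 163.9 CPM ± 9.22 in Dorsal midbrain neurons. The next lowest at both later stages were erythro-myeloid progenitors (EMP), at 25.2 and 16.4 CPM. Acvr1b had UMIs in every one of these types, from 4.54 to 8.54 CPM at E7.5, from 1.27 to 10.6 CPM (Limb ectoderm, 10.6 ± 1.93, SD, n = 2) at E8.5 and from 1.47 to 14.6 CPM (Thyroid primordium, 14.6 ± 5.91, SD, n = 3) at E9.5. At E9.5 the leading neighbours of Acvr1b, Thyroid primordium and Limb ectoderm (10.4 CPM ± 5.67, SD, n = 2), did not differ beyond their spread.

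Whether loss of Stat3 changed the pathway in cells of the same embryos was asked first in whole libraries. None of the 8 genes was called at E7.5 (2.62% of all genes tested were), at E8.5 (0.103%) or at E9.5 (0.745%) by edgeR's quasi-likelihood test, and 0, 0 and 1 of them (Lefty1) had an unadjusted p under 0.05. DESeq2 on the same counts also called 0 at each stage. The median log2 difference, null over WT, of the 8 genes was -0.01 at E7.5, -0.04 at E8.5 and -0.01 at E9.5, beside 0.01, 0.00 and 0.00 over all genes tested. Precision differed between the genes: for Acvr2b the differences were 0.09 (SE 0.0711), -0.11 (SE 0.0709) and -0.01 (SE 0.0498), whereas for Tdgf1 they were 0.60 (SE 1.57), 0.44 (SE 1.92) and -0.20 (SE 1.83). For Nodal they were -0.30 (SE 0.770), 0.24 (SE 1.06) and 0.40 (SE 0.779). Over the alternatives Tdgf1 ranged from -4.60 to 6.11 at E7.5, from -0.96 to 1.38 at E8.5 and from -0.77 to 0.33 at E9.5, and Nodal from -1.34 to 0.56, from -2.21 to 1.68 and from 0.25 to 0.58, so that the sign held only for Nodal at E9.5. At E7.5 Foxh1 was the gene whose null libraries (3.01 and 3.43 CPM) all lay above the WT libraries (2.54 and 2.86 CPM), as did those of 14.2% of all genes, while 26.6% had all null libraries below. The differences themselves were then compared between stages: 0 of the 8 genes were called for E8.5 against E7.5 (1.12% of all genes were) or for E9.5 against E8.5 (0.0257%) by edgeR, and 0 had an unadjusted p under 0.05.

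Lefty1, the antagonist that keeps Nodal signalling off the midline and the right side, had lower values in each null library than in each WT library at E8.5 and at E9.5. At E9.5 it stood at 0.248, 0.121, 0.152 and 0.149 CPM in WT A to D (24, 9, 12 and 17 UMIs) and at 0.00721, 0.0329, 0.0410 and 0.0145 CPM in null A to D (1, 3, 3 and 1 UMIs). The highest null value was under the lowest WT value, as for 3.57% of all genes (the converse held for 3.34%). An exact two-sided permutation test gave p = 0.0286, the smallest p that 4 against 4 libraries allow, with 8 genes tested, and this p is too small where libraries share an embryo. The log2 difference was -2.84 (SE 0.959), which was not called over all genes (edgeR adjusted p = 0.258). In a fit of the E9.5 libraries alone it was -2.87. Lefty1 could pass the filter on low counts there through WT libraries alone, so no test is given for that fit. Without the Erythroid cells the difference was -2.51 (edgeR adjusted p = 0.440).

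At E8.5 Lefty1 stood at 0.277 and 0.334 CPM in WT A and B (23 and 25 UMIs) and at 0.0177 and 0.211 CPM in null A and B (2 and 7 UMIs). The groups did not overlap, as for 12.1% of genes with null below WT, and Cer1 was the other member of this kind (0.687 and 0.481 against 0.477 and 0.241 CPM). The log2 difference of Lefty1 was -2.0 (SE 1.19, edgeR adjusted p = 1.0), and it moved to -0.57 without null A and to -4.02 without null B. Null below WT at both E8.5 and E9.5 was shared by 1.38% of genes. At E7.5 the levels were 0.0736 and 0.497 CPM in WT and 0.0111 and 0.483 CPM in null libraries and overlapped, and 12 of the 15 Lefty1 UMIs in Visceral endoderm of WT B came from 1 cell. The exact permutation test over the 3 stages, with labels exchanged within stages, gave p = 0.207 for Lefty1 and 0.443 to 0.994 for the other 7 genes. It used the unscaled mean of the CPM differences of the stages, so a stage with a wide spread weighs most.

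At E8.5, Erythroid cells held 18 and 16 UMIs in WT A and B (426 and 622 cells, 0.950 and 0.978 CPM) and 0 in null A and B (594 and 131 cells). A count of 0 allows 3 counts over the null group, or 0.101 CPM. The Lefty1 level over the WT group, 0.963 CPM, was 9.51-fold this value, and 1.62-fold the value allowed without null A. These ratios leave out the counting error of the 34 WT UMIs and the spread between libraries, so they are not lower limits. Erythroid cells were singled out after the data were seen. Lefty1 passed the filter on low counts there through WT cells alone, so no test is given for it. In all other cells of E8.5 the groups overlapped, with 0.0782 and 0.154 CPM in WT and 0.0226 and 0.249 CPM in null libraries, and without Erythroid cells the whole-library difference was -0.27.

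At E9.5, Erythroid cells held 12, 0, 1 and 1 Lefty1 UMIs in WT A to D (164, 43, 38 and 135 cells), whereas null libraries had 9, 2, 2 and 6 Erythroid cells, too few to read. The groups also differed in the other cells, which held 0.131, 0.122, 0.141 and 0.144 CPM in WT A to D and 0.00722, 0.0329, 0.0410 and 0.0145 CPM in null A to D. In sum 48 WT and 8 null UMIs were counted, a ratio of levels of 6.30 (95% counting interval 2.96 to 15.4). This interval leaves out the spread between libraries, and the fit over libraries without Erythroid cells, given above, made no call. How many of all genes separate in these cells was not counted. The ratio was 4.52 to 8.10 with any 1 library left out. The WT UMIs were spread over 30 of 82 other types with at most 5 in a type, so no single type could be tested. Of the 7 Lefty1 UMIs of E8.5 null B, the library with the lowest share of cells with a tdTomato UMI, 6 were in cells with a tdTomato UMI.

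Within single cell types of 1 stage, null against WT, the 8 genes gave 0 calls in 7 types at E7.5, 20 types at E8.5 and 37 types at E9.5, against 0.184%, 0.0615% and 0.119% of all gene-by-type tests by edgeR's quasi-likelihood test. Leaving aside Lefty1 in Erythroid cells of E8.5, whose null libraries were at 0, the number of tests of a member with an unadjusted p under 0.05 was 1 at E7.5, 0 at E8.5 and 1 at E9.5, and DESeq2 gave 0 calls. Most members were too sparse for these tests. Nodal passed the filter on low counts in 0 types at every stage, Lefty1 in 1 type (Erythroid at E8.5), Lefty2 in 2, 2 and 1 types, Cer1 in 1, 0 and 2, Tdgf1 in 5, 0 and 0, and Foxh1 in 3, 1 and 0. For Tdgf1 the log2 differences at E7.5 ran from -2.21 in Caudal epiblast to 0.55 in Ectoderm, with a median of -1.69 over the 5 types, each with edgeR adjusted p of 1.00. Without E7.5 WT A, WT B alone stood for WT cells of the stage, and that fit ran over all stages. Lefty2 in Intermediate mesoderm and Tdgf1 in Intermediate and Paraxial mesoderm then lay lower in null cells. No call is read from a single WT library.

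Acvr2b was the member with enough counts in every type tested. Its median log2 difference, null over WT, was -0.02 at E7.5, -0.08 at E8.5 and -0.05 at E9.5. It was lower in null cells in 5 of 7, 19 of 20 and 26 of 37 types. The types of a stage share their libraries, and how often other genes lean the same way was not counted. The lowest value was -0.42 in Erythroid cells of E8.5 (edgeR adjusted p = 0.745), and the lowest adjusted p of any type was 0.536 (edgeR) in Sclerotome of E9.5. Acvr1b passed in 6, 6 and 11 types with medians of -0.11, 0.18 and -0.05.

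**Figure D4:**
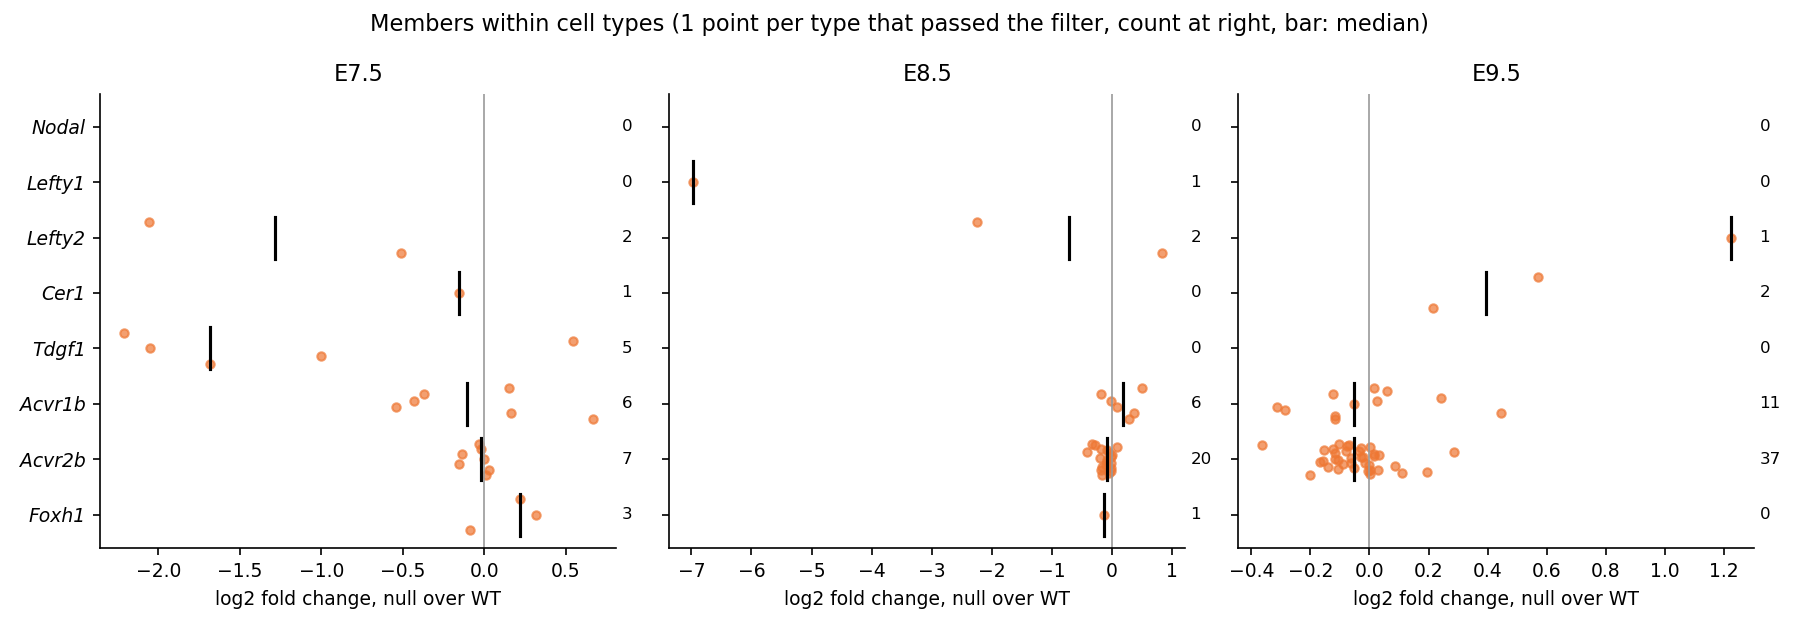
Log2 fold change, null over WT, of each gene within cell types of the 3 stages (panels), 1 point per type in which the gene passed the filter on low counts, with the median as a bar and the number of types at the right. The x axes differ between panels. Acvr2b points crowd close to 0 in 7, 20 and 37 types, and the sparse genes have few points.

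When levels were first averaged over the cell types that every library of a stage held, 5 of the 8 genes passed the filter on low values (Lefty2, Cer1, Tdgf1, Acvr1b and Acvr2b). A call in this fit was a limma adjusted p under 0.05, with no minimum fold change. Of the 5 genes, 0 were called at E7.5 (0.63% of all genes), E8.5 (0.286%), E9.5 (0.756%) or over the mean of the 3 stages (3.26%). At an unadjusted limma p under 0.05 there were 0 in each stage and 1, Acvr2b, in the mean, where 2231 of all 11902 genes tested reached it. Acvr2b had a mean difference of -0.08 (SE 0.0294, limma adjusted p = 0.134) on the log2(CPM + 1) scale, where small levels are compressed.

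A list of 26 further pathway genes was read in the same fits, of which 24 passed the filter on low counts. At E7.5, 1 was called lower in null cells, against 2.42% of all genes (0.199% were called higher), and edgeR called 0 at E8.5 and E9.5, where 1 and 0 of them had an unadjusted p under 0.05. It was Pcsk6, a convertase that cleaves the Nodal precursor, at 8.17 and 5.93 CPM in WT and 1.32 and 1.06 CPM in null libraries (-2.48, SE 0.180, edgeR adjusted p = 5.95e-06). Cells under extra-embryonic labels, 155 and 270 in the WT libraries and 4 and 0 in the null libraries, held 183 of 222 and 209 of 322 of the WT UMIs. Without these cells Pcsk6 stood at 1.86 and 2.45 CPM against 1.31 and 1.06 CPM and was not called (-0.81, edgeR adjusted p = 0.150). In levels averaged over cell types its difference was -0.51 at E7.5 (limma adjusted p = 0.116), -0.32 at E8.5 (limma adjusted p = 0.680) and 0.08 at E9.5 (limma adjusted p = 0.918). The mean over the stages was -0.25 (limma adjusted p = 0.0647), and none of these was called.

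Between E7.5 and E8.5 in WT cells, 7 of the 24 genes were called lower and 1 higher, against 8.55% and 9.15% of all genes. The lower genes were the targets Eomes (-8.08), Mixl1 (-4.24), Lhx1 (-2.35) and Gsc (-1.39), the co-receptor Cfc1 (-2.97), Pcsk6 (-1.75) and the activin-binding inhibitor Fst (-1.32), and the higher gene was the activin subunit Inhba (2.20). Without the cells under extra-embryonic labels Pcsk6 was not called (-0.09, SE 0.175, edgeR adjusted p = 0.719). Their median over the 24 genes was -0.77, beside 0.01 over all genes. Between E8.5 and E9.5, Cfc1 was called lower (-3.20), and the feedback genes Pmepa1 (2.09) and Skil (1.16) were called higher, against 3.24% and 6.82% of all genes.

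The genes whose levels followed each member most closely were found by Pearson's r over 87 profiles of a cell type and stage, which share libraries, among 13190 genes. The profiles hold types with over 15 cells in at least 2 WT libraries, so that the Node and Nascent mesoderm of E7.5 are not among them, and the highest Nodal, Lefty2 and Tdgf1 profiles reach 21.3, 51.4 and 16.2 CPM. Tdgf1 was most like Vrtn (0.87), Pou5f1 (0.86) and Syndig1l (0.84), and Foxh1 most like Vrtn (0.83), Pou5f1 (0.80) and Dppa5a (0.77). Nodal was most like Ninj2 (0.79), Cer1 like Samd3 (0.71), Lefty2 like Mixl1 (0.61) and Lefty1 like Erich4 (0.65). Acvr2b was most like Tmem132a (0.90), Smad4 (0.89) and Zfp664 (0.89), and Acvr1b like Lmo7 and Efna1 (0.62 each).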

How the data were processed

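Droplet 3' RNA libraries of sorted cells from chimeric embryos were analysed. The authors mapped reads with Cell Ranger to mm10 and deposited raw UMI counts per gene and cell, after filters on UMIs, genes, mitochondrial and ribosomal share, with a table of 192657 barcodes giving library, stage, sort gate, doublet call and a cell type transferred from a mouse gastrulation atlas. That deposited table also gives each cell's mitochondrial percent (library medians 0.94% to 1.81%). Of 41832 cells, 3395 called doublets were left out, as were 596 cells of the WT gate that held a UMI of the reporter. Retained cells held 10003 to 99882 UMIs. Libraries were grouped by stage and gate, since their names match no sample title.

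Counts were summed per library, and per library and type (over 15 cells), and tested with edgeR 4.0.16 (R 4.3.3; TMM, filterByExpr, quasi-likelihood test, Benjamini-Hochberg over all genes tested). Haemoglobin, ribosomal-protein, mitochondrial, Gm- and Rik-named and Y-linked genes, Xist, Tsix and the reporter, 8173 in all, were left out of tests. Type-averaged CPM were tested with limma 3.58.1 on log2(CPM + 1). DESeq2 1.42.0, other factors and filters, and leaving out each library were tried. The counting interval is exact and covers counting error only. The level that a count of 0 allows covers the counting error of that 0 only. Exact permutation tests used scipy 1.17.1. The code was tested on simulated counts.

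All 8 members are named, as are pathway genes that were called and the 3 genes (or fewer) most alike per member. Members and lists were chosen with earlier results of these data known. Gene positions are from GENCODE M21 and promoters from RefSeq. The calls of further pathway genes within cell types are not reported here.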

Additional observations from a re-analysis of the deposited data

Results flagged for a closer look

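The difference between null and WT cells in Pcsk6 was not the same at E7.5 and E8.5. The interaction term of the edgeR fit was 2.19 on the log2 scale (SE 0.246, edgeR adjusted p = 0.000838), the only one called among the 32 members and further pathway genes tested. Without the cells under extra-embryonic labels, of which E7.5 WT libraries had 155 and 270 and E7.5 null libraries 4 and 0, the term was 0.52 (edgeR adjusted p = 1.00). In the 16 groups of 4 libraries at E9.5 (8 genes in each genotype), 0 had a library standing far from the other 3 by Dixon's criterion.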

How the results depend on the processing

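Of the alternatives for counts of called members and for shares, 214 gave a value close to the one reported, 8 gave more calls and 3 moved a share. More calls came within types at E8.5 with no filter on low counts (1, Lefty1 in Erythroid cells, where null libraries had 0 UMIs, so that it supports nothing). Another came at E9.5 in whole libraries with a separate fit per stage (1, Lefty1). There Lefty1 could pass the filter through WT libraries alone, so that this call supports nothing either. Between E8.5 and E9.5 in WT cells DESeq2 gave 2 calls (Foxh1 and Lefty2). Leaving out 1 library gave 0 to 3 calls within types at E7.5, 2 to 5 between E7.5 and E8.5 in WT cells (5 without E7.5 WT A or without E7.5 null A) and 1 to 2 between E8.5 and E9.5 (2 without E7.5 WT A or WT B). Unthinned shares were higher for every member. The rise exceeded the SD of the thinned share for Foxh1 (19.2%), Acvr1b (17.5%) and Acvr2b (97.8%), and shares that rose by less were counted as close. Among the differences of Cer1, Nodal, Foxh1, Acvr1b, Lefty2 and Tdgf1 between E7.5 and E8.5 in WT cells, that of Tdgf1 reversed, at 1.36 without E7.5 WT B, against -5.12 at the other end. Of the 24 differences of a member between null and WT in whole libraries, 17 took the opposite sign in at least 1 alternative. The cause was not tested. With 2 libraries per genotype at E7.5 and E8.5, an exact permutation test could not pass 0.05 (smallest p 0.333), and Nodal passed the filter on low counts in 0 of the types tested. The type-averaged fit over types with over 50 cells in every library gave no value, since E7.5 had 0 such types. Alternatives without E9.5 WT C and D together, without Erythroid cells and the permutation tests were chosen after seeing the data. No paired analysis was possible because the library names match no sample title, so no embryo pool or replicate number could be tied to a library. In the paper each pool gave 1 library of each genotype, and its tests included the pool. The fits here leave this pairing out, so differences between pools count as spread.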
